A study of Canis lupus familiaris with 12 samples.

Results

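Antisense circRNAs were 605 of the 15990 circRNAs (3.78%) listed in tissue described as right atrium from control and rapidly paced dogs. They held 2683 of 182697 junction reads (1.47%). A circRNA was taken as antisense when the class column of the deposited circRNA table said so. Of the 673 circRNAs of that class, the 68 annotated to ENSCAFG00000014025 were left out and the remaining 605 were kept. The genes they lie across numbered 507, of which 451 had 1 antisense circRNA, 36 had 2 and 20 had 3 or more. The label was checked on the strand of the gene. For 565 circRNAs the gene was found in the mRNA table, and in all 565 the gene lay on the opposite strand. The other 40 could not be checked in this way, because for 34 the gene was found in the lncRNA table only and for 6 in neither table.

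A circRNA is a closed loop of RNA, formed when the end of an RNA segment is joined back to a point upstream of it, and the read that crosses this back-splice junction is what identifies it. Most circRNAs of the heart are made of exons of protein-coding genes, by the same splicing machinery that makes the mRNA. An antisense circRNA maps within or across a gene but on the strand that is not copied into its mRNA, so exons of that gene cannot have supplied it in the usual way.

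Total RNA was sequenced after removal of ribosomal RNA, with a library kit that keeps strand. The control group was 3 mongrel dogs that received a pacing electrode and a pacemaker without stimulation. The pacing group was 3 mongrel dogs whose right atrium was paced rapidly and without pause for 14 days, a model of atrial fibrillation made by pacing and not by heart disease. The study describes each library as right atrium of a separate dog, which the marker values of C4 below leave uncertain for that library. The columns of the deposited tables call the control libraries C1, C2 and C4 and the pacing libraries P1, P2 and P3.

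Library C4 stands apart. The sample label with the title C4 describes a paced dog, but the column was treated as control because it is named like the other controls. In the mRNA table, whose values are FPKM (fragments scaled to transcript length and library depth), NPPA of atrial muscle was at 7.78 in C4 against 1658 at the least elsewhere. MYL2 of ventricular muscle was at 2331 in C4 against 108 at the most elsewhere. Of the 4 atrial markers measured, NPPA, MYL4 and BMP10 were lowest in C4, and all 3 ventricular markers (MYL2, MYL3 and IRX4) were highest there. By these markers C4 resembled ventricular more than atrial muscle, and the reason was not tested. C1 and C2 differed from the other libraries in the adipocyte markers. ADIPOQ was 343 FPKM in C1 and 119 FPKM in C2 against 0.40 to 4.37 FPKM elsewhere. PLIN1 was 54.3 FPKM in C1 and 48.9 FPKM in C2 against 0.07 to 1.68 FPKM elsewhere. The part of adipose tissue in the comparisons of the groups was not tested. Where a call or a comparison of the groups changed without C4, or with C4 as a pacing library, this is stated beside it. The libraries held 22987 to 41299 junction reads, and the pacing libraries were the deepest. No value of 1 occurs among the reads, so a circRNA listed at 0 may have had 0 or 1 read.

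Most antisense circRNAs were rare and were seen in a single dog. The median was 2 reads over all 6 libraries and the mean was 4.43. Exactly 2 reads, the smallest value in the table, were found for 394 (65.1%), 20 had 10 or more reads and 9 had 20 or more. A single library listed 564 of them (93.2%), 25 were listed in 2 libraries, and 16 were listed in 3 or more. These 16 held 700 reads, 26.1% of all antisense reads. The 4 most abundant antisense circRNAs, which lie across C12orf56, AHNAK, BCAM and TRDN, held 784 reads (29.2%).

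Among the antisense circRNAs, 379 (62.6%) were listed in pacing libraries only, 197 (32.6%) in control libraries only and 29 in both groups. Over all circRNAs these shares were 46.0% for pacing only and 30.8% for control only. The pacing libraries held 59.7% of the antisense reads and 60.9% of all junction reads. The control part of the antisense reads includes 300 reads of a single circRNA across AHNAK in C2. The closeness of these shares therefore rests in part on a single library.

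**Figure D1:**
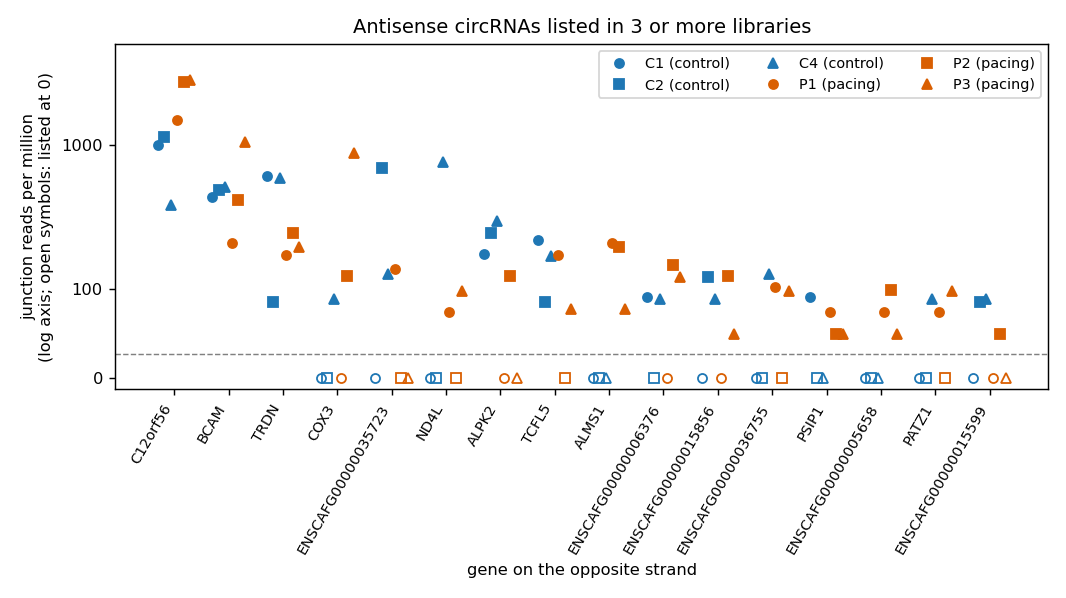
Junction reads relative to the library total (log axis) in each library for the 16 antisense circRNAs listed in 3 or more libraries, named by the gene on the opposite strand. Blue symbols are control libraries, orange symbols are pacing libraries, and open symbols below the dashed line are libraries in which the circRNA was listed at 0; the circRNAs across C12orf56, BCAM and TRDN have filled symbols in all 6 libraries.

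The antisense circRNA with the most reads lay across C12orf56, a gene whose own mRNA was hardly present. It was mapped to chr10:7106164-7107010 of canFam3 on the plus strand, within the locus of C12orf56 (chr10:7025360-7114291, minus strand), and its ends were 847 nucleotides apart. It had 23 reads in C1, 28 in C2 and 9 in C4, and 43 in P1, 111 in P2 and 117 in P3. All pacing libraries were above all control libraries, and C4 was the lowest of the controls. The mRNA of C12orf56 was between 0.05 FPKM (P1) and 1.80 FPKM (C1). A single circRNA was listed on the strand of C12orf56, with 2 reads in P2. Of the other antisense circRNAs of this gene, the one at chr10:7017036-7042799 had 4 reads in C2 and 2 in P1. The abundance of the junction on the opposite strand was thus accompanied by neither abundant mRNA nor abundant circRNA of the gene itself.

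The circRNA across BCAM (basal cell adhesion molecule, a receptor for laminin) was listed in every library and spanned 2 genes. It was mapped to chr1:110577681-110601812 on the plus strand, starting inside BCAM (chr1:110574101-110585035, minus strand) and ending inside CBLC (chr1:110590803-110606717, minus strand). Its reads were 10, 12 and 12 in C1, C2 and C4, and 6, 17 and 43 in P1, P2 and P3. The groups overlapped, since P1 was below all controls and P3 far above them. The edgeR log2 fold change of pacing over control was 0.51 (SE 0.75, quasi-likelihood adjusted p = 0.604, 3 libraries a group), and without P3 it was -0.33. BCAM mRNA was 12.2 to 48.2 FPKM, CBLC mRNA was at 0 FPKM in 4 libraries and at most 0.14 FPKM, and no circRNA of the strand of BCAM was listed.

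The circRNA across TRDN was the most abundant one in a gene of calcium handling. TRDN encodes triadin, which holds calsequestrin near the ryanodine receptor in the sarcoplasmic reticulum. The circRNA was mapped to chr1:62635006-62641681 on the plus strand and lay inside TRDN (chr1:62398004-62763030, minus strand). It had 14 reads in C1, 2 in C2 and 14 in C4, against 5 in P1, 10 in P2 and 8 in P3. C1 and C4 were above all pacing libraries and C2 was below them. The log2 fold change was -0.77 (SE 0.90, edgeR quasi-likelihood adjusted p = 0.484), and with C4 as a pacing library it was -0.07. TRDN mRNA was 32.5 FPKM in C2, its lowest value, and 78.7 to 107 FPKM in the other libraries. On the strand of TRDN a single circRNA was listed, with 2 reads in C2, whereas the antisense one had 53 reads in all.

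The remaining antisense circRNAs in 4 or 5 libraries were less abundant. The one across TCFL5, a transcription factor gene, had 5, 2 and 4 reads in C1, C2 and C4, and 5, 0 and 3 in P1, P2 and P3. At its downstream end (chr24:47111315) it coincided with 2 further antisense circRNAs of TCFL5, whose starts were 4 and 30 nucleotides away. The TCFL5 locus in the mRNA table runs over chr24:46668622-47275963 and holds further genes, so which gene lies opposite is uncertain. Across ALPK2, which encodes an alpha-kinase, the reads were 4, 6 and 7 in C1, C2 and C4, and 0, 5 and 0 in P1, P2 and P3. It was seen in every control library and in P2 only among the pacing libraries (edgeR quasi-likelihood adjusted p = 0.401). Across PSIP1, a chromatin-binding coactivator, 2 reads were found in each of C1, P1, P2 and P3. The circRNAs across ENSCAFG00000006376 and ENSCAFG00000015856 had 15 and 12 reads and were listed in 2 libraries of each group.

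Pacing was compared with control for each circRNA with the quasi-likelihood test of edgeR, and the thresholds stated in the study's methods were used, a fold change of at least 2 at a p of up to 0.05 before adjustment. Of the 605 antisense circRNAs, 5 were higher in pacing (0.826%), against 0.663% of all circRNAs. Another 3 were lower in pacing (0.496%), against 0.356% of all circRNAs. After Benjamini-Hochberg adjustment over all 15990 circRNAs, 1 antisense circRNA passed 0.05, where the background was 0.05% (8 circRNAs), and none did without C2. Both shares were near those of all circRNAs. The number higher was 2 without P1 and 3 without P3 or with C4 as a pacing library, and the number lower was 1 without C2 and 5 without C1. At a p under 0.05 before adjustment and no limit on the fold there were 8 with edgeR (1.32%), against 1.02% of all circRNAs. With DESeq2, at a fold change of at least 2, there were 0 in either direction. DESeq2 gave a p for 604 of the 605 and none for 1, the circRNA across AHNAK with 300 reads.

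Among the 5 that were higher, the circRNA across C12orf56 was the only one with reads in every library. Its log2 fold change was 1.75 (SE 0.66, edgeR quasi-likelihood adjusted p = 0.401), a call before adjustment only. The change was 1.41 and still called without C4, and with C4 as a pacing library it was 1.06 and no longer called. In all 6 fits with 1 library left out it remained past the thresholds, whereas with DESeq2 it did not.

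The circRNA at chr17:49447399-49449513 on the plus strand, across ALMS1 (a protein of centrosomes and basal bodies of cilia), was listed in all pacing libraries and in no control library. P1 held 6 reads, P2 8 and P3 3, against 0 in C1, C2 and C4 (edgeR quasi-likelihood adjusted p = 0.401). The call was lost in 5 of 13 alternatives: without P1, without P2, with C4 as a pacing library, with DESeq2 and with the exact test of edgeR. The direction was the same in all 13. ALMS1 mRNA was 7.92 to 10.6 FPKM over the 6 libraries, and the 15 circRNAs on the strand of ALMS1 had 10 to 26 reads a library (10 to 22 in control and 14 to 26 in pacing), so that the groups overlapped in both. Another 2 antisense circRNAs of ALMS1, in single libraries, brought the antisense reads of this gene to 6, 11 and 9 in P1, P2 and P3 and to 0 in all controls.

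The other 3 calls in this direction rested on 1 or 2 libraries. The circRNA annotated to ARHGAP29, at chr6:55022091-55038558, had 4 reads in P1, 10 in P3 and 0 in the other libraries (edgeR quasi-likelihood adjusted p = 0.401). It started near the end of ARHGAP29 (chr6:54964697-55023840, plus strand) and lay mostly beyond the gene. The call was lost in 11 of 13 alternatives, among them without C4 and with C4 as a pacing library. The mitochondrial circRNA across COX3 had 2 reads in C4, 5 in P2, 36 in P3 and 0 in C1, C2 and P1. Its log2 fold change was 3.68 (SE 1.30, edgeR quasi-likelihood adjusted p = 0.401), and without P3 it was 1.26 and not called. C4 held the only control reads, so without C4 or with C4 as a pacing library the call held against controls that were all at 0, where a fitted fold is not a measure of size. One of the circRNAs across AHNAK had 31 reads in P1 and none elsewhere (edgeR quasi-likelihood adjusted p = 0.224).

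AHNAK, which encodes a very large scaffold protein of the cell membrane, carried the only antisense circRNA past the adjusted threshold, and its reads came from a single dog. The circRNA at chr18:54102331-54104310 on the minus strand had 300 reads in C2 and 0 in the other 5 libraries (edgeR quasi-likelihood adjusted p = 1.96e-14). These were 51.5% of all antisense reads of C2, and without C2 the circRNA has no reads left to test. The circRNA with 31 reads in P1 lay some distance away, at chr18:54108503-54112015, within the same gene (chr18:54096782-54116632, plus strand). On the strand of AHNAK, 6 circRNAs were listed with 48, 44 and 73 reads in C1, C2 and C4 and 60, 108 and 86 reads in P1, P2 and P3. The most abundant of them, at chr18:54109918-54110925, lay between the ends of the antisense circRNA of P1. AHNAK mRNA was 227 FPKM in C2 and 225 FPKM in P1, near the top of its narrow range of 168 to 227 FPKM. C2 was thus the lowest library for the circRNAs of the gene's own strand and the highest for the antisense circRNA.

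CEACAM28 and ZNF655 gave the remaining calls of lower values in pacing. CEACAM28 is a member of the carcinoembryonic antigen family, whose genes resemble each other closely, so the assignment of its reads is uncertain. The circRNA at chr1:111797738-111831171 had 15 reads in C2, 3 in C4 and 0 in the others (edgeR quasi-likelihood adjusted p = 0.401), and without C2 it was not called. CEACAM28 mRNA was also highest in C2, at 73.0 FPKM against 3.71 to 16.7 FPKM elsewhere. Of the 2 leukocyte markers, PTPRC was 64.4 FPKM in C2 and 1.67 to 22.8 FPKM elsewhere, and CD68 was 12.2 FPKM in C2 and in P1 and 0.97 to 3.80 FPKM elsewhere. The part of these cells in the result was not tested, and in tissue RNA fewer cells of a type cannot be told apart from less RNA per cell. Across ZNF655, a zinc finger gene, 11 reads were found in C2 alone (edgeR quasi-likelihood adjusted p = 0.401).

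Few antisense circRNAs separated the groups. The reads compared here were not scaled for depth, and every pacing library was deeper than every control library. The 2 directions are therefore not on an equal footing. To separate the groups in this way a circRNA must be listed in at least 3 libraries, which held for 16 of the 605. The shares that follow therefore depend on how often circRNAs recur. In 3 of 605 (0.496%) every pacing library was above every control library, against 1.6% of all circRNAs. These were the circRNAs across C12orf56, ALMS1 and ENSCAFG00000005658, the last with 2, 4 and 2 reads in P1, P2 and P3 and 0 in the controls (edgeR quasi-likelihood adjusted p = 0.401). In no antisense circRNA was every control library above every pacing library, against 0.188% of all circRNAs.

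The libraries differed in how many antisense circRNAs they listed. C1 listed 55, C2 76 and C4 113, and P1 listed 100, P2 147 and P3 186. P2 and P3 were the highest, and P1 was below C4. The mean was 81.3 ± 29.4 (SD, n = 3) in control and 144 ± 43.1 (SD, n = 3) in pacing, and the 2-sided exact permutation test gave p = 0.2, where 0.1 is the smallest p that 3 against 3 libraries allow. After each library was thinned to the 22987 junction reads of C1, the expected numbers were 55, 70.0 and 108 in C1, C2 and C4 and 72.5, 79.4 and 84.2 in P1, P2 and P3. The group means were then 77.7 ± 27.4 and 78.7 ± 5.90 (SD, n = 3, exact permutation p = 0.9). The closeness of these means rested on C4, which had the most antisense circRNAs at equal depth, whereas C1 and C2 were below all pacing libraries. Without C4 the means were 62.5 ± 10.6 in control (n = 2) and 78.7 ± 5.90 in pacing, and the exact permutation test gave p = 0.1, the smallest that these 5 libraries allow. With C4 as a pacing library they were 62.5 ± 10.6 and 86.1 ± 15.5 (exact permutation p = 0.133). These values were computed after the data were seen.

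As a share of junction reads, the antisense circRNAs were 0.766%, 2.35% and 1.36% in C1, C2 and C4, and 1.15%, 1.43% and 1.66% in P1, P2 and P3. The highest and the lowest share were both in control libraries. The mean was 1.49% ± 0.80 (SD, n = 3) in control and 1.41% ± 0.25 in pacing (2-sided exact permutation p = 0.9). When circRNAs with 100 or more reads in a library were left out, C2 fell to 1.03%, and the difference turned to 0.17 percentage points higher in pacing (exact permutation p = 0.5).

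**Figure D2:**
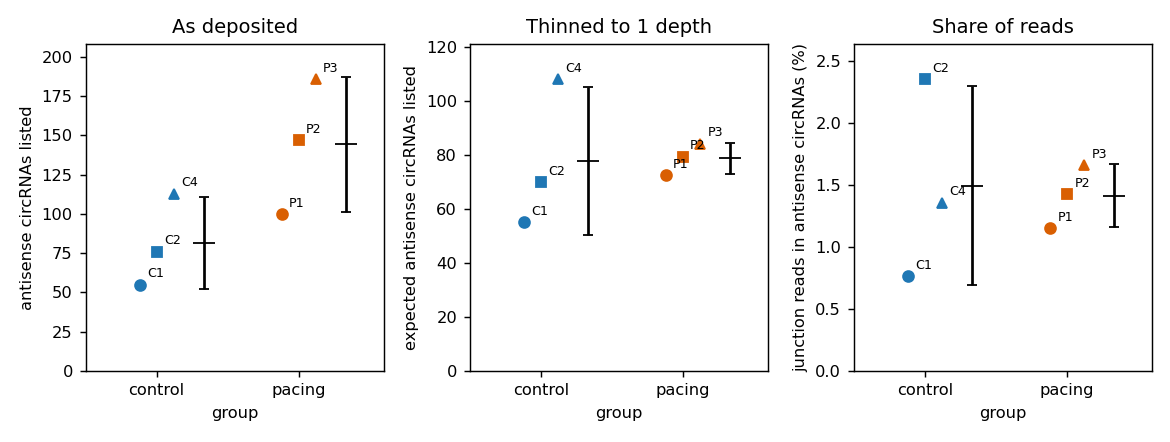
Antisense circRNAs in each library, as the number listed (left), the expected number listed after thinning to the depth of C1 (middle) and the share of junction reads in percent (right). Symbols are libraries, and the black bars are the mean and SD of 3 libraries; P2 and P3 are the highest on the left, and in the middle panel C4 is the highest at 108 and all pacing libraries lie above C1 and C2.

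Antisense circRNAs joined points that lie close together on the genome. The ends were 640 nucleotides apart at the median, with quartiles of 215 and 2760, a shortest distance of 95 and a longest of 96793. At 200 nucleotides or less were 142 (23.5%), and 76 (12.6%) were longer than 10000. The predicted length in the table equalled this distance in all 605, so no exon structure was assigned to any of them, whereas the same held for 4.90% of exonic circRNAs. This is not particular to the antisense class. The median predicted length also equalled the median distance for intronic (532), intergenic (1407.5) and sense overlapping (13443) circRNAs. The shortest antisense circRNA, across the mitochondrial ND2 gene, covered 95 nucleotides with 4 reads in P3, and the longest, across ENSCAFG00000035723, covered chr13:62534882-62631674 with 17 reads in C2, 3 in C4 and 4 in P1. The share listed in 2 or more libraries is given by distance as a description. Of those up to 200 nucleotides it was 4.93%, against 10.9% of those of 2000 to 10000 nucleotides and 13.2% of those above 10000.

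**Figure D3:**
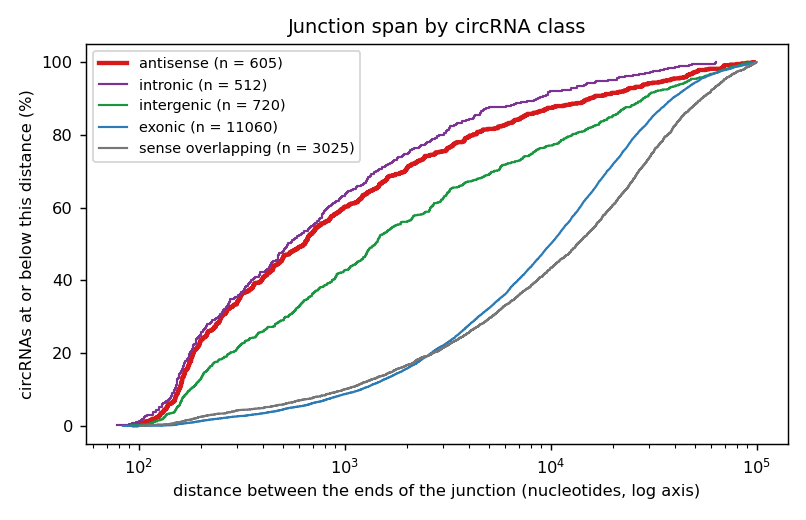
Distance between the ends of the junction (nucleotides, log axis) against the percentage of circRNAs at or below it, for each class, with the number of circRNAs in the key. The antisense curve runs beside the intronic one, with 46.1% of antisense circRNAs at 500 nucleotides or less against 47.9% of intronic and 4.49% of exonic circRNAs.

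The antisense class was compared with the other 4 classes within each library, so that each library served as its own pair, with a 2-sided exact sign-flip permutation test over 6 libraries. The smallest p that this test can give is 0.031, and the 16 comparisons were adjusted together by Benjamini-Hochberg. Antisense circRNAs recurred in other dogs less often than most classes. On average 18.2% of the antisense circRNAs of a library were also listed in another library, against 63.2% of exonic, 50.6% of sense overlapping and 36.0% of intergenic ones (lower in 6 of 6 libraries for each, exact p = 0.031, adjusted p = 0.05). Against intronic circRNAs, at 23.2%, they were lower in 5 of 6 libraries (exact p = 0.0938).

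They also shared junction ends with other circRNAs less often than each of the other classes. In a library, 7.85% had an end in common with another circRNA of the table, against 72.9% of exonic, 66.1% of sense overlapping, 32.5% of intergenic and 17.6% of intronic ones (lower in 6 of 6 libraries for each, exact p = 0.031, adjusted p = 0.05). Among all 605, 37 (6.12%) shared an end with another circRNA of their strand, and for 29 of them the partner was itself antisense. An exonic circRNA uses splice sites that many circRNAs of a gene have in common. The genome sequence was not used here, so whether the antisense ends lie at splice sites was not tested.

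The median distance between the ends was 660 nucleotides for antisense circRNAs on average over the libraries, against 9505 for exonic, 13869 for sense overlapping and 1873 for intergenic circRNAs (lower in 6 of 6 libraries for each, exact p = 0.031, adjusted p = 0.0455). Against intronic circRNAs the difference was 0.083 nucleotides (SD 213, exact p = 1). The distance took the place of the planned predicted length after the data were seen, and the comparisons were adjusted again with it. In predicted length, from which introns are removed for exonic circRNAs, antisense and exonic circRNAs did not differ beyond the spread between libraries (660 against 579 nucleotides, exact p = 0.281). Against sense overlapping and intergenic circRNAs the predicted length was lower (sign-flip test, adjusted p = 0.05 for each).

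The mean number of reads per listed circRNA was 4.12 in the antisense class, lower than the 14.8 of sense overlapping circRNAs (6 of 6 libraries, exact p = 0.031, adjusted p = 0.05). It was 5.37 for exonic, 3.60 for intergenic and 4.42 for intronic circRNAs (exact p = 0.219, 0.812 and 0.656). The antisense mean was raised by a few junctions, with 7.67 reads in C2 and 2.84 to 3.98 in the other libraries. Without circRNAs of 100 or more reads in a library it was 1.58 reads below exonic, 0.55 below intergenic and 0.89 below intronic circRNAs (exact p = 0.031 for each). How far the low read number bears on recurrence was not tested.

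**Figure D4:**
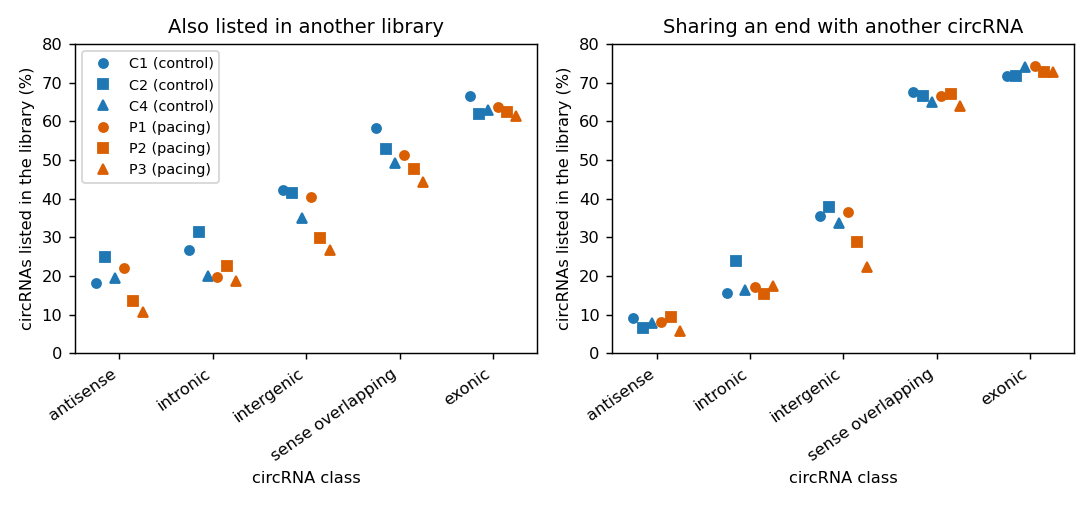
For each class and library, the percentage of listed circRNAs also listed in another library (left) and the percentage sharing an end with another circRNA (right). Blue symbols are control and orange symbols pacing libraries; antisense circRNAs sit at 10.8% to 25.0% on the left and 5.91% to 9.52% on the right, and exonic ones above 61% and 71%.

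Most antisense circRNAs lay opposite genes that were expressed in these libraries. The mRNA of the gene had a median of 22.7 FPKM over the 534 nuclear antisense circRNAs whose gene was in the mRNA table, against 16.8 FPKM over 11051 exonic circRNAs and 2.33 FPKM over all 19843 nuclear mRNAs. For 34 (6.37%) the mRNA was under 1 FPKM, as it was for 41.7% of all nuclear mRNAs. These medians are a description, since 1 gene can enter several times. The circRNA across C12orf56 was an exception among the abundant ones.

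For 384 antisense circRNAs the table also listed circRNAs of the gene on the gene's own strand, and 183 (30.2%) overlapped a circRNA of the other strand. Their ends seldom met. No antisense circRNA had an end at the same base as a circRNA of the opposite strand, 4 had an end within 10 nucleotides and 21 within 50 nucleotides. In a single case both ends were within 10 nucleotides, across SYNCRIP, which encodes an RNA-binding protein of the hnRNP family. The antisense circRNA covered chr12:45625117-45639216 on the plus strand with 2 reads in P2, and each of its ends was offset by 8 nucleotides from an exonic circRNA of SYNCRIP.

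The mitochondrial genome carried 31 antisense circRNAs (5.12%) with 154 reads, out of 50 mitochondrial circRNAs of all classes. The genes concerned encode subunits of the respiratory chain and of ATP synthase and are copied from 1 long transcript that is cut and not spliced. COX3 (cytochrome c oxidase subunit) had the most antisense circRNAs of any gene, 9, followed in the mitochondrion by ND2 (complex I) with 7 and MT-CO2 (cytochrome c oxidase) with 5. All 31 were on the minus strand, which follows from the class since their genes lie on the plus strand, but of the other mitochondrial circRNAs 17 were also on the minus strand and 2 on the plus strand. Their median span was 184 nucleotides, and 27 were listed in 1 library.

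Of the 9 across COX3, 4 shared the end at position 8993 of chrM and differed at the other end (9143, 9176, 9230 and 9300). The one that ended at 9176 had 43 of the 69 reads across COX3. Across ND4L, a subunit of complex I, the circRNA at chrM:10187-10323 had 18 reads in C4, 2 in P1, 4 in P3 and 0 in C1, C2 and P2. C4 was the highest library for ND4L and P3 for COX3, so the 2 most abundant mitochondrial circRNAs had different patterns. C1, C2 and C4 listed 2, 3 and 5 mitochondrial antisense circRNAs with 6, 8 and 26 reads, and P1, P2 and P3 listed 6, 9 and 12 with 14, 29 and 71 reads. Each pacing library, all deeper than the controls, listed more than each control library, while in reads C4 was above P1. Mitochondrial DNA has copies in the nuclear genome, and how such reads were assigned is not given in the sources used here.

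Some genes of muscle contraction, rhythm and matrix lay opposite antisense circRNAs, nearly all of them with few reads. Of 82 listed genes found in the nuclear mRNA table, 18 (22.0%) lay opposite an antisense circRNA, against 2.33% of all 19843 nuclear mRNAs. The listed genes were also highly expressed, with a median of 73.5 FPKM against 2.33 FPKM, and the part of expression in this was not tested. The gene lists were chosen with earlier results of these data known, so the higher share is a description only. Of the 33 antisense circRNAs concerned, 0 were called, where 1.02% of all circRNAs had a p under 0.05 before adjustment, so that a count of 0 is near the background. Of 28 genes of calcium handling and ion channels, 8 had antisense circRNAs, 16 in number with 89 reads, and 15 of the 16 were in single libraries, the exception being the one across TRDN. RYR2, through which the sarcoplasmic reticulum releases calcium, had 7 with 16 reads in total, beside 95 circRNAs of its own strand with 884 reads. SLC8A1, the sodium-calcium exchanger, had 3, and the most abundant of them had 4 reads in C4. CASQ2 (calsequestrin), ATP2A2 (the calcium pump of the sarcoplasmic reticulum), CACNA1C (L-type calcium channel) and KCNJ3 (acetylcholine-activated potassium channel) had 1 each with 2 to 4 reads.

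Of 27 sarcomere and Z-disc genes, 4 had antisense circRNAs, 11 in all, each in a single library and together with 29 reads. PDLIM5, which encodes a Z-disc protein with PDZ and LIM domains, had 8 of them with 18 reads, of which 12 reads were in P3. The most abundant of the 11 was across MYH7, the slow myosin heavy chain, with 7 reads in P3. Of 20 extracellular matrix and fibrosis genes, COL1A2, COL5A2, FBN1, LAMA2, LTBP1 and SMAD3 had 1 each, with 20 reads in all, and the one across COL5A2, a chain of type V collagen, was the only one listed in 2 libraries (2 reads in C2 and 3 in P1). No antisense circRNA was listed across 16 nuclear genes of mitochondria and energy metabolism.

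The mRNAs opposite the antisense circRNAs were compared between the groups with limma on log2 of FPKM plus 1. Of 444 host mRNAs tested, 3 passed an adjusted p of 0.05, against 0.0259% of all 11583 mRNAs, which are the same 3. These were the mitochondrial mRNAs COX3, ATP6 and MT-ATP8, which share a single locus in the table (chrM:7802-9427) and were listed at 0 FPKM in P1, P2 and P3. COX3 was listed at 64079, 44959 and 67623 FPKM in C1, C2 and C4. A value of 0 for such a gene may be a failed estimate, and COX1 was listed at 0 as well in C4, P2 and P3. No change of these mRNAs was read from them. At an unadjusted p of 0.05 or less, 7 host mRNAs were higher (1.58%, against 2.52% of all mRNAs) and 23 were lower in pacing (5.18%, against 3.02%). The 23 include the 3 mitochondrial mRNAs listed at 0, and without these 20 were lower (4.54%). With C4 as a pacing library no host mRNA passed the adjusted threshold.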

How the data were processed

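The circRNA values are read counts per back-splice junction. To make these counts the authors trimmed reads with cutadapt 1.9.3, aligned them to canFam3 with Bowtie2 and ran find_circ with Ensembl transcripts as a guide. How the caller assigned strand is not given in the sources used here. For mRNAs and lncRNAs the authors deposited FPKM values, with HISAT2, Cufflinks and Cuffdiff named in the submitters' processing notes. The lncRNA table served only to look up gene IDs. Another 18 columns of values per library (normalized circRNA values and scaled counts) were not analysed, and the small RNA libraries were not used here.

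The circRNAs and gene lists were chosen with earlier results of these data known. Counts of all 15990 circRNAs were fitted with edgeR 4.0.16 (quasi-likelihood, TMM, 2-sided, no filter, R 4.3.3). The study states the thresholds but no count model, so the choice of edgeR was made here. mRNAs that averaged at least 1 FPKM were fitted with limma 3.58.1 (with trend, pseudocount of 1 FPKM). Thinned numbers are hypergeometric expectations of 2 or more reads. These expectations used SciPy 1.17.1, and the permutation tests went through all arrangements of the libraries with NumPy 2.4.6. The code was tested on simulated data. The permutation p-values of the groups rest on 3 dogs a group, and those of the classes on differences within each of the 6 libraries. The edgeR and limma fits share their estimates of spread over all circRNAs or mRNAs. A small edgeR p can therefore come from a single dog, as for the circRNA across AHNAK in C2. Depth was 22987 to 41299 junction reads a library, so that counting error alone is large for a circRNA of 2 reads.

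circRNAs were named by a rule that takes those past the thresholds, the 10 with the most reads, those in 5 or 6 libraries, the genes with the most antisense circRNAs or reads, the shortest and longest, and up to 3 a gene list. A gene counted in the list of calcium handling and ion channels is not reported here by name. Others named for ends, strand or levels were chosen after their values were seen. Alternatives covered scaling, filters, DESeq2 1.42.0, the exact test of edgeR, each library left out, C4 as a pacing library, thinning, and the 68 left-out circRNAs as members. Scaling without MYH7 junctions, the span in place of the predicted length, mean reads without circRNAs of 100 or more reads, and thinned numbers without each library or with C4 as a pacing library were added after the data were seen.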

Additional observations from a re-analysis of the deposited data

How the results depend on the processing

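The number of antisense circRNAs higher in pacing was 5, and it was 1 with filterByExpr (2 circRNAs tested), 0 with DESeq2 (604 tested), 3 with the exact test of edgeR and 3 with C4 as a pacing library. With 1 library left out it was 2 (without P1) to 4. The number lower was 3, and it was 0 with filterByExpr and 0 with DESeq2, and 1 (without C2) to 5 (without C1) with 1 library left out. The number past the adjusted threshold was 1, and it was 0 with filterByExpr, 2 at 10 or more reads (20 tested), 0 with DESeq2 (which gave no p for the one past it in edgeR), and 0 (without C2) to 2 (without P2 or P3) with 1 library left out. RLE scaling, total reads and scaling without MYH7 junctions left these numbers within 1.5 times. The circRNA across BCAM had a log2 fold change of -0.33 (without P3) to 0.89 (without P1) with 1 library left out.

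The share of junction reads, -0.08 percentage points in pacing minus control, turned to 0.17 without circRNAs of 100 or more reads, and ran from -0.44 (without C1) to 0.35 (without C2) with 1 library left out, 0.05 of it without P1. The number at equal depth, 0.99 higher in pacing, ran from -10.4 (without C1) to 16.2 (without C4) with 1 library left out, with -2.88 without C2 and -1.76 without P3. The percentage also listed in another library minus that of intronic circRNAs changed to -10.8 points at a minimum of 3 reads (exact permutation p = 0.031). Mean reads without circRNAs of 100 or more reads were -1.58 against exonic, -0.55 against intergenic and -0.89 against intronic circRNAs. The median length changed to -8845 against exonic circRNAs with the span, which counts introns, and to -154 against intronic ones at 3 reads. With 5 libraries the sign-flip test cannot go below 0.0625, so the values without each library were read with no test, and all moved by less than 1 SD. Host mRNAs past the adjusted threshold fell from 3 to 0 with C4 as a pacing library. The causes of these changes were not tested.

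No paired analysis was possible because the control and pacing groups share no replicate number. A circRNA of 2 reads in 1 library cannot show a difference at this depth, and 394 of 605 are of that kind.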
